A study of Mus musculus with 24 samples.

Results

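The synaptotagmins are the calcium-binding membrane proteins of vesicles, and 10 of their genes (Syt1, Syt2, Syt4, Syt5, Syt6, Syt7, Syt9, Syt10, Syt11 and Syt12) were followed by gene symbol through the brain RNA of mice that lack single tRNA-Phe genes, with the liver of the same genotypes as a contrast. The 10 genes are 10 of 55469 in the deposited table and 10 of 17 synaptotagmin genes matched in it. All 10 had a mean normalised count of at least 10 in the brain, and 5 of them (Syt1, Syt7, Syt9, Syt11 and Syt12) reached that level in the liver. The family was chosen by its brain values, namely the differences of single members between genotypes in the brain samples, so their brain comparisons are descriptions. Counts of members past a threshold in brain are printed beside the share of all genes without anything being read from them, no p-value of a member in brain is given, and members are tested in the liver only.

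Total RNA of 24 samples was sequenced, 12 from brain and 12 from liver, with 3 samples (A, B and C) for each of 4 genotypes per tissue. The groups were wild-type (WT) mice and 3 homozygous knockout lines, each without 1 of the genes for the tRNA that decodes phenylalanine codons. Each line is named for the gene it lacks (tRNA-Phe-1-1-/- or tRNA-Phe-2-1-/- or tRNA-Phe-3-1-/-). The mice were 10 weeks old on the C57BL/6N background. The study describes male mice matched by age and litter, but also mice from different litters and, for the study as a whole, both sexes. The labels give no sex or litter for these samples. Every line carried a germline CRISPR-Cas9 deletion in all its cells, bred from edited founders by backcrossing. RNA came from brain or liver tissue, and the part of the brain was not given. The methods of the study describe pieces 3 mm wide for tissue homogenates and give no size for the RNA samples. The deleted tRNA genes were not analysed here, so the genotypes stand as labelled.

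Synaptotagmins carry 2 C2 domains behind a membrane anchor. In the calcium-sensing members, acidic residues in the loops of the C2 domains bind calcium and bring the domain to membrane lipids and to the SNARE complex, which fuses vesicle and plasma membrane. Syt1 is the main fast calcium sensor of forebrain synapses, Syt2 serves the same step in fast-firing neurons, among them parvalbumin interneurons, and in the hindbrain, and Syt9 is a fast sensor in limbic and striatal neurons. Syt7 is a slower sensor of high calcium affinity, Syt10 acts in the release of IGF-1 from olfactory bulb neurons, and Syt6 is known from sperm acrosome exocytosis. Syt4, Syt11 and Syt12 are members that do not act as calcium sensors of this kind.

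The coding stretch over the last calcium-binding loop of the first C2 domain shows both this division and the codons that the deleted tRNA genes read. The stretches run from codon 230 of Syt1, 231 of Syt2, 320 of Syt10 and 247 of Syt11, 5′ to 3′ in the transcripts of the GENCODE annotation of GRCm39, with phenylalanine codons (TTC or TTT) in capitals. Syt1 is shown as the most abundant member, Syt2 and Syt10 as those whose levels lay farthest from WT, and Syt11 as the most abundant member without calcium sensing.
Syt1: gatTTTgaccgcTTCtccaagcacgac
Syt2: gacTTTgaccgcTTCtctaagcatgac
Syt10: gatTTTgacagaTTTtccagacacgac
Syt11: agcTTTgatcgaTTCtctcgggatgac
Each of the 4 stretches holds 2 phenylalanine codons. The first codon is gat or gac, both for the acidic aspartate, in Syt1, Syt2 and Syt10, and agc, for serine, in Syt11. In Syt10 both phenylalanine codons are TTT, whereas in the other 3 the second is TTC.

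Over the whole coding sequence, the members held 2.78 (Syt7) to 5.41 (Syt4) phenylalanine codons per 100 codons, with a median of 3.84. The median of 14834 protein-coding genes tested in the brain was 3.60, with quartiles of 2.66 and 4.65. Syt1 had 4.51, Syt2 4.27 and Syt10 4.21, all within the upper part of this range but below its upper quartile. Syt2 and Syt10 differed in which codon they use. TTC made up 77.8% of the phenylalanine codons of Syt2 and 36.4% of those of Syt10, beside a median of 57.1% over all genes. The relation of codon content to level was not tested.

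Depth was even, with 30365760 to 46225360 reads per brain sample and 32276896 to 51584522 per liver sample recovered from the deposited values. The tissues carried their defining markers. The 5 general neuron markers summed to 100192 to 123311 normalised counts in the brain samples and 63.6 to 151 in the liver samples. Hepatocyte markers summed to 19.7 to 1303 in the brain samples and to 1923670 to 3020430 in the liver samples. The brain samples did not all hold the same regions. The score of 8 thalamus and midbrain markers (the mean deviation of log2 levels from the mean of 12 samples) was 3.36 in tRNA-Phe-2-1-/- C, 2.48 in tRNA-Phe-3-1-/- C and 1.54 in WT A, and -1.16 to -0.46 in all the others. The score of 4 olfactory bulb markers was 3.36 in tRNA-Phe-3-1-/- B and 3.08 in tRNA-Phe-1-1-/- A, and 0.57 or less in the rest. Normalised counts of Ttr, the choroid plexus marker, ran from 5.01 to 49266. In such bulk samples fewer cells of a type and less RNA per cell cannot be told apart.

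Syt1 led the family in WT brain at 242 ± 30.8 CPM per kilobase of the canonical transcript (SD, n = 3), where CPM is the normalised count scaled to the total of its sample, followed by Syt11 at 119 ± 3.89. Syt1 made up 48.6% and Syt11 24.7% of the normalised counts of the 10 genes over all brain samples. Next on the per-length scale came Syt4 (46.5 ± 3.77), Syt5 (29.8 ± 3.97) and Syt7 (21.1 ± 2.57), each apart from its neighbours in all 3 WT samples. Syt2 (10.9 ± 2.82), Syt6 (10.6 ± 3.40) and Syt12 (10.5 ± 1.89) lay at one level and overlapped. Syt10 (3.29 ± 0.803) and Syt9 (1.53 ± 0.689) were lowest. With the summed length of all exons instead of the canonical transcript, Syt6 stood at 3.30 and Syt10 at 0.660, so Syt6 lay below Syt12 (6.90) and Syt10 below Syt9 (1.41). The order at the low end therefore depends on the length used, whereas Syt1, Syt11, Syt4, Syt5 and Syt7 kept their places.

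In the liver all 10 genes were listed far lower. Syt1 averaged 5.82 CPM over the 12 liver samples, against 1026 in the brain. Syt11 averaged 3.01 in the liver and 523 in the brain. Syt2, Syt5 and Syt6 each had 4 reads in all 12 liver samples together, Syt4 had 8, and Syt10 had 0 of 512542712 reads, which allows up to 0.00585 CPM by a limit of 3 counts (counting error only). Per kilobase in WT liver, Syt1 (1.26 ± 0.386) and Syt11 (0.753 ± 0.242) overlapped, Syt9 stood at 0.236 ± 0.00794, and Syt12 (0.126 ± 0.0326) and Syt7 (0.103 ± 0.0315) overlapped. The 2 tables were normalised apart by the authors, so tissues are set side by side here without a test.

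**Figure D1:**
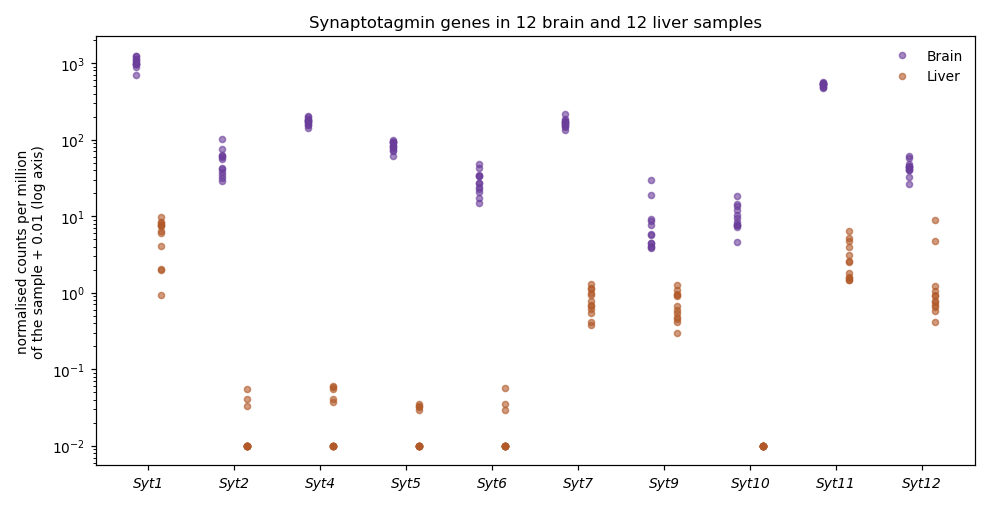
CPM (normalised counts scaled to the sample total), plus 0.01, on a log axis for the 10 synaptotagmin genes in 12 brain (violet) and 12 liver (brown) samples, 1 point per sample. The lowest brain point of Syt1 lies at 694 CPM, while liver points of Syt2, Syt4, Syt5, Syt6 and Syt10 at 0.01 are samples with no read.

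Syt2, the fast sensor of fast-firing neurons, was lower than WT in the brains of all 3 lines. Its normalised counts were 3481, 2217 and 2666 in WT, 999, 1502 and 1324 in tRNA-Phe-1-1-/-, 2172, 1943 and 2042 in tRNA-Phe-2-1-/- and 1081, 1214 and 1415 in tRNA-Phe-3-1-/-. Every knockout sample lay below every WT sample, though tRNA-Phe-2-1-/- A (2172) came close to WT B (2217), and all samples of the other 2 lines also lay below those of tRNA-Phe-2-1-/-. The means were 2788 ± 641, 1275 ± 255, 2052 ± 115 and 1237 ± 168 (SD, n = 3). The log2 differences from WT, on the scale of log2(normalised count + 1), were -1.12 ± 0.18 in tRNA-Phe-1-1-/-, -0.42 ± 0.18 in tRNA-Phe-2-1-/- and -1.16 ± 0.18 in tRNA-Phe-3-1-/- (SE of the limma fit). The difference of tRNA-Phe-1-1-/- from tRNA-Phe-3-1-/- was 0.03 ± 0.18. The 3 comparisons share the WT samples. The gene spans chr1:134646534-134753149 (GRCm38.p6).

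Of the 10 genes, 1 (Syt2, lower) passed an adjusted p of 0.05 by limma in tRNA-Phe-1-1-/- brain, where 1.05% of 19228 genes passed and 0.426% passed as lower, and 0 passed in tRNA-Phe-2-1-/- or tRNA-Phe-3-1-/-, where 0% of genes did. At an unadjusted p under 0.05 the counts were 4 members in tRNA-Phe-1-1-/-, 1 in tRNA-Phe-2-1-/- and 3 in tRNA-Phe-3-1-/-, beside 15.9%, 5.57% and 12.3% of all genes. On the recovered reads, edgeR called 1, 0 and 0 members, beside 0.973%, 0% and 0% of genes. DESeq2 called 1, 0 and 2, the last being Syt2 and Syt10, beside 4.55%, 0.109% and 1.94%. The tRNA-Phe-1-1-/- count became 0 when WT A, WT C or tRNA-Phe-1-1-/- C was left out. In those fits 74, 5 and 9 of all genes passed, in that order, against 202 with all samples. The Syt2 differences were -0.95 to -1.28 over all samples left out in turn. In tRNA-Phe-1-1-/- 4 of 10 members did not overlap WT, beside 25.2% of all genes. Of these, Syt6 and Syt10 were higher (12.8% of all genes) and Syt2 and Syt11 lower (12.4%). In tRNA-Phe-2-1-/- 1 member, Syt2, did not overlap and was lower, beside 11.4% of all genes (6.02% higher and 5.43% lower). In tRNA-Phe-3-1-/- 3 members did not overlap, Syt10 above and Syt2 and Syt12 below WT, beside 16.4% of all genes (7.93% higher and 8.48% lower). Between the lines, tRNA-Phe-1-1-/- did not overlap the tRNA-Phe-2-1-/- group for 1 member (Syt2, beside 20.8% of genes) and the tRNA-Phe-3-1-/- group for 4 (Syt9, Syt10, Syt11 and Syt12, beside 23.5%). The latter groups did not overlap each other for 2 members (Syt2 and Syt10, beside 12.7%). The median difference of the 10 genes was -0.06, -0.06 and -0.01 in the 3 lines, over members that lay on both sides of 0.

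**Figure D2:**
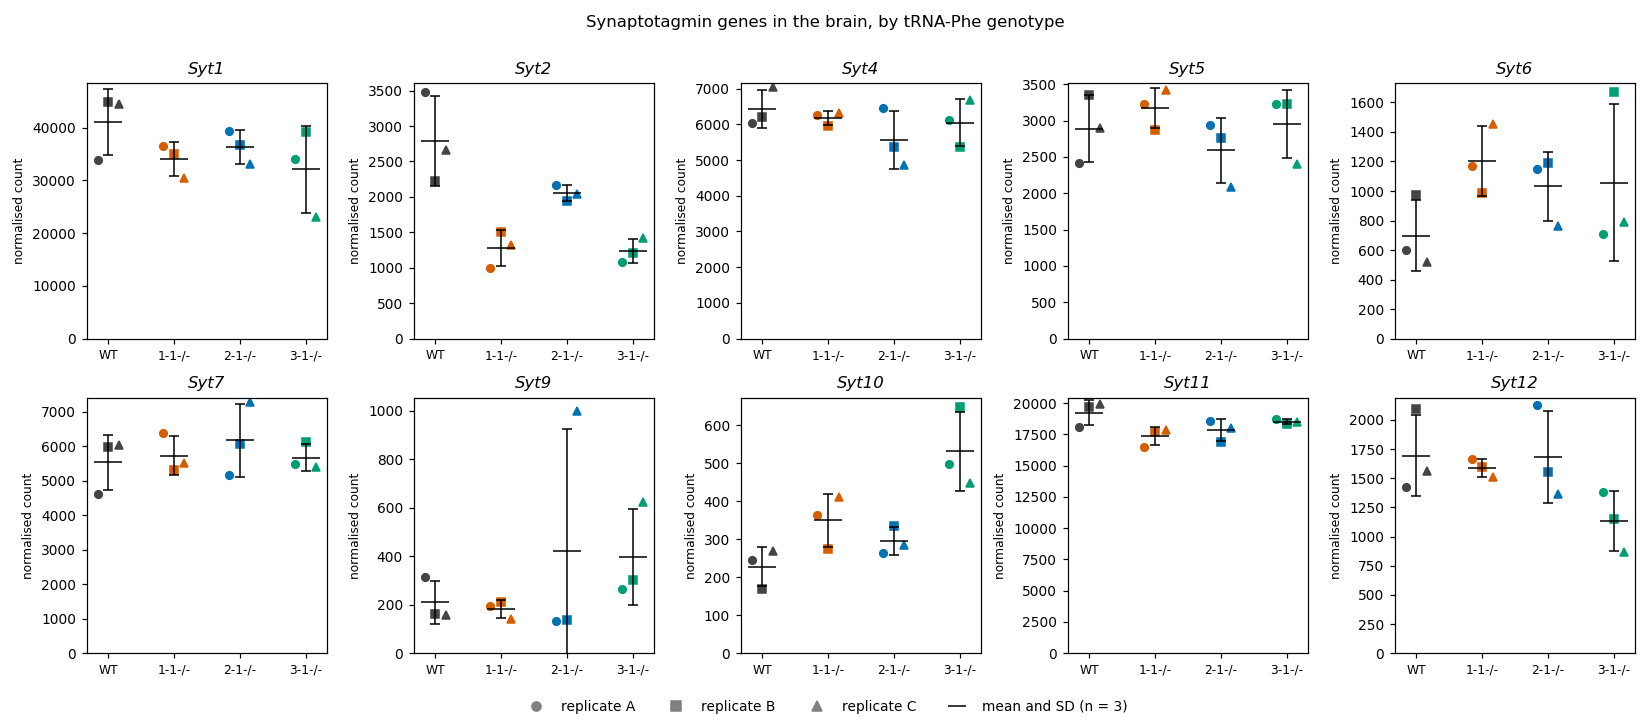
Normalised counts (vertical axis, from 0) of the 10 synaptotagmin genes in brain by genotype, with 1 symbol per sample and a bar and whiskers for mean and SD (n = 3). Syt2 in all 3 knockout lines lies below its WT samples (2217 to 3481), and Syt10 in tRNA-Phe-3-1-/- (447 to 648) lies above all others.

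As a ratio within each sample, Syt2 stood at 10.3, 4.95 and 6.01 per 100 Syt1 in WT and at 2.73, 4.29 and 4.36 in tRNA-Phe-1-1-/-, where no sample reached the WT range. In tRNA-Phe-2-1-/- the ratio was 5.52, 5.30 and 6.18, inside the WT range. In tRNA-Phe-3-1-/- it was 3.17, 3.11 and 6.15, of which sample C, the one with the lowest Syt1, lay inside the WT range. Against Syt1 the lower Syt2 thus set only the tRNA-Phe-1-1-/- group fully apart from WT.

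Syt10, the sensor of IGF-1 release, moved the opposite way. It had 245, 169 and 269 normalised counts in WT, 364, 273 and 411 in tRNA-Phe-1-1-/-, 265, 335 and 284 in tRNA-Phe-2-1-/- and 497, 648 and 447 in tRNA-Phe-3-1-/-. In tRNA-Phe-1-1-/- all samples lay above WT, sample B by a small margin, and those of tRNA-Phe-3-1-/- lay above every other brain sample. The log2 differences were 0.62 ± 0.21, 0.39 ± 0.21 and 1.23 ± 0.21. Without WT B, the lowest sample, the tRNA-Phe-2-1-/- difference was 0.19. The gene spans chr15:89773714-89841980. The olfactory bulb score was higher than in WT (-1.52 to -0.87) in every sample of tRNA-Phe-1-1-/- (-0.37 to 3.08) and of tRNA-Phe-3-1-/- (0.40 to 3.36), with a correlation with Syt10 of 0.72 over the 12 samples, which share their libraries. With the score of the fast-firing neuron markers, described below, the correlation of Syt10 was -0.82. Without the 2 libraries highest in the olfactory bulb score, the Syt10 differences in these lines were 0.58 and 1.08. That exclusion was chosen after seeing the data. The part of tissue make-up in the Syt10 levels was not tested.

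Syt6 varied widely within groups, from 521 to 1670 over the 12 samples. It had 600, 973 and 521 normalised counts in WT and 1170, 985 and 1457 in tRNA-Phe-1-1-/-, so the closest samples of the groups nearly met, with a log2 difference of 0.82 ± 0.33. In tRNA-Phe-2-1-/- (1148, 1188 and 764) and tRNA-Phe-3-1-/- (712, 1670 and 788) it overlapped WT, with differences of 0.59 ± 0.33 and 0.54 ± 0.33. Without tRNA-Phe-3-1-/- B the last was 0.16.

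Of the members without calcium sensing, Syt12 was lower in tRNA-Phe-3-1-/- brain. It had 1427, 2092 and 1564 normalised counts in WT and 1383, 1148 and 870 in tRNA-Phe-3-1-/-, a log2 difference of -0.59 ± 0.20 in which the closest samples of the groups were near each other. In tRNA-Phe-1-1-/- (1665, 1596 and 1511) and tRNA-Phe-2-1-/- (2129, 1554 and 1364) it overlapped WT. Syt11 was lower in tRNA-Phe-1-1-/- by a small margin, at 16532, 17712 and 17861 against 18088, 19726 and 19945 in WT, a difference of -0.15 ± 0.07. Syt11 was the steadiest member, with its highest brain sample 1.21 times its lowest. Syt4 ran from 4859 to 7039 with differences between -0.22 and -0.06, and overlapped WT in each line.

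Syt1, the most abundant member, had 33916, 44830 and 44374 normalised counts in WT, 36554, 35058 and 30363 in tRNA-Phe-1-1-/-, 39343, 36674 and 33015 in tRNA-Phe-2-1-/- and 34128, 39081 and 23014 in tRNA-Phe-3-1-/-. Each line overlapped WT through WT A, the lowest WT sample. The log2 differences were -0.26 ± 0.18, -0.17 ± 0.18 and -0.38 ± 0.18, and the last was -0.16 without tRNA-Phe-3-1-/- C. Syt7, the slow sensor, differed by 0.05, 0.15 and 0.04 (SE 0.14) and Syt5 by 0.14, -0.16 and 0.03 (SE 0.16), all overlapping.

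Syt9 had the widest range of the family, its highest sample 7.56 times its lowest, and 2 libraries made that range. It had 313, 162 and 157 normalised counts in WT, 196, 209 and 141 in tRNA-Phe-1-1-/-, 132, 137 and 1000 in tRNA-Phe-2-1-/- and 265, 303 and 625 in tRNA-Phe-3-1-/-. The samples at 1000, 625 and 313 were the 3 with the highest thalamus and midbrain scores. The log2 difference in tRNA-Phe-2-1-/- was 0.40 ± 0.66 with sample C and -0.56 without it. In tRNA-Phe-3-1-/- it was 0.88 ± 0.66 with sample C and 0.50 without it.

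**Figure D3:**
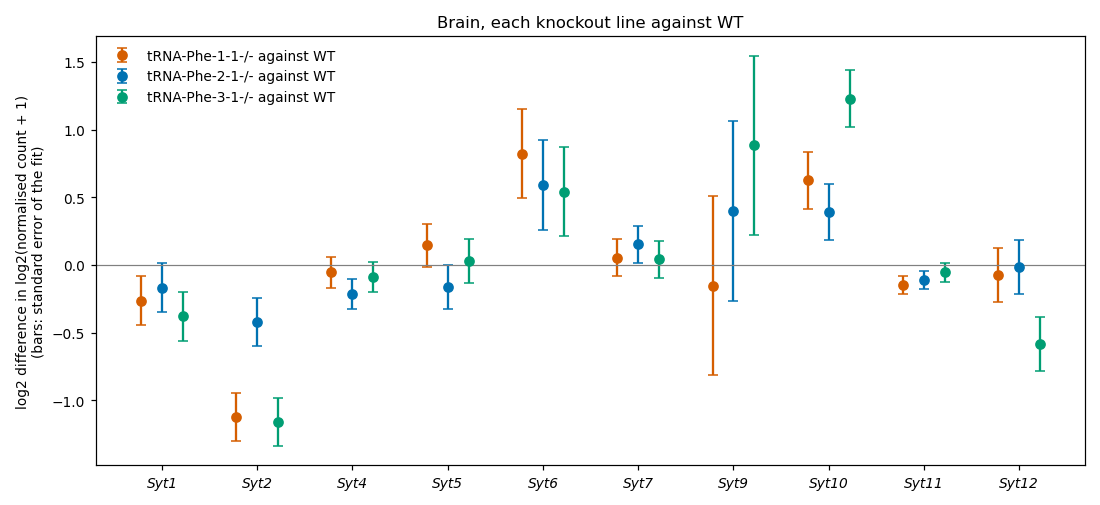
Log2 differences between each knockout line and WT in brain (vertical axis, scale of log2(normalised count + 1)) for the 10 genes, with 1 colour per line and the standard error of the limma fit as bars. Syt2 lies farthest below 0 in tRNA-Phe-1-1-/- (-1.12) and tRNA-Phe-3-1-/- (-1.16) and Syt10 farthest above it in tRNA-Phe-3-1-/- (1.23), while Syt9 carries the longest bars (0.66).

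The genes whose brain pattern was most like that of Syt2 were ranked by Pearson's r of log2 levels over the 12 brain samples among 13393 genes with a mean of at least 100. Scn1a, a sodium channel of parvalbumin interneurons, came first with r = 0.96, and r = 0.85 after the genotype means were taken away. Its normalised counts were 14430, 10836 and 12824 in WT, 8160, 9618 and 8366 in tRNA-Phe-1-1-/-, 11947, 10685 and 11895 in tRNA-Phe-2-1-/- and 8550, 9390 and 9123 in tRNA-Phe-3-1-/-. As with Syt2, tRNA-Phe-1-1-/- lay wholly below WT, as did tRNA-Phe-3-1-/-, and sample by sample the lowest and highest were the same 2 samples, tRNA-Phe-1-1-/- A and WT A. The next were Kazald1 (0.92), Pcdh9 (0.91), Gm13629 (0.91), Rims2 (0.88), Glrx (0.88), C230086J09Rik (0.87), Scg5 (0.86), Pola2 (0.86) and Nr3c1 (0.85). Rims2, a scaffold of the release site, is the 1 gene of the release lists among them, with differences of -0.13 ± 0.06, 0.01 ± 0.06 and -0.18 ± 0.06. The likeness of Pola2 and Nr3c1 came from the genotype means, since within genotypes their r was 0.15 and -0.11. The genes most opposite to Syt2 were Pnrc1 (-0.91), Kctd12 (-0.90), Clcn7 (-0.90), Zfp811 (-0.89) and Ajap1 (-0.87). Among the members, Syt2 was most opposite to Syt10 (r = -0.73) and nearest to Syt11 (r = 0.40).

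Markers of the neurons that use Syt2 were also lower in part. Pvalb, the calcium buffer parvalbumin, had 2075, 1349 and 1686 normalised counts in WT, 1022, 1089 and 763 in tRNA-Phe-1-1-/-, 1318, 886 and 1795 in tRNA-Phe-2-1-/- and 747, 658 and 1227 in tRNA-Phe-3-1-/-. It lay below WT without overlap in tRNA-Phe-1-1-/- and in tRNA-Phe-3-1-/-, with log2 differences of -0.82 ± 0.29 and -0.99 ± 0.29. Kcnc1, a fast potassium channel, likewise lay below WT in those lines, by -0.21 ± 0.13 and -0.25 ± 0.13. Nefh, the heavy neurofilament, overlapped WT in every line. The score of the 8 fast-firing markers, Scn1a included, was 0.17 to 0.28 in WT, -0.34 to 0.12 in tRNA-Phe-1-1-/-, 0.06 to 0.19 in tRNA-Phe-2-1-/- and -0.36 to -0.11 in tRNA-Phe-3-1-/-, and its r with Syt2 was 0.88. Syt2 also had an r of -0.76 with the olfactory bulb score. Of the list, 3 of 8 genes in tRNA-Phe-1-1-/- and 4 of 8 in tRNA-Phe-3-1-/- lay below WT without overlap, beside 12.4% and 8.48% of all genes. In each of the lines 1 of the 8 had a difference above 0, of 0.41, 0.79 and 0.47, with overlap. Markers of hindbrain, where Syt2 is also known, were near the floor, with 2 of 12 at a mean of 10 or more and a highest sum of 215. The part of these cells in the Syt2 levels was not tested.

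**Figure D4:**
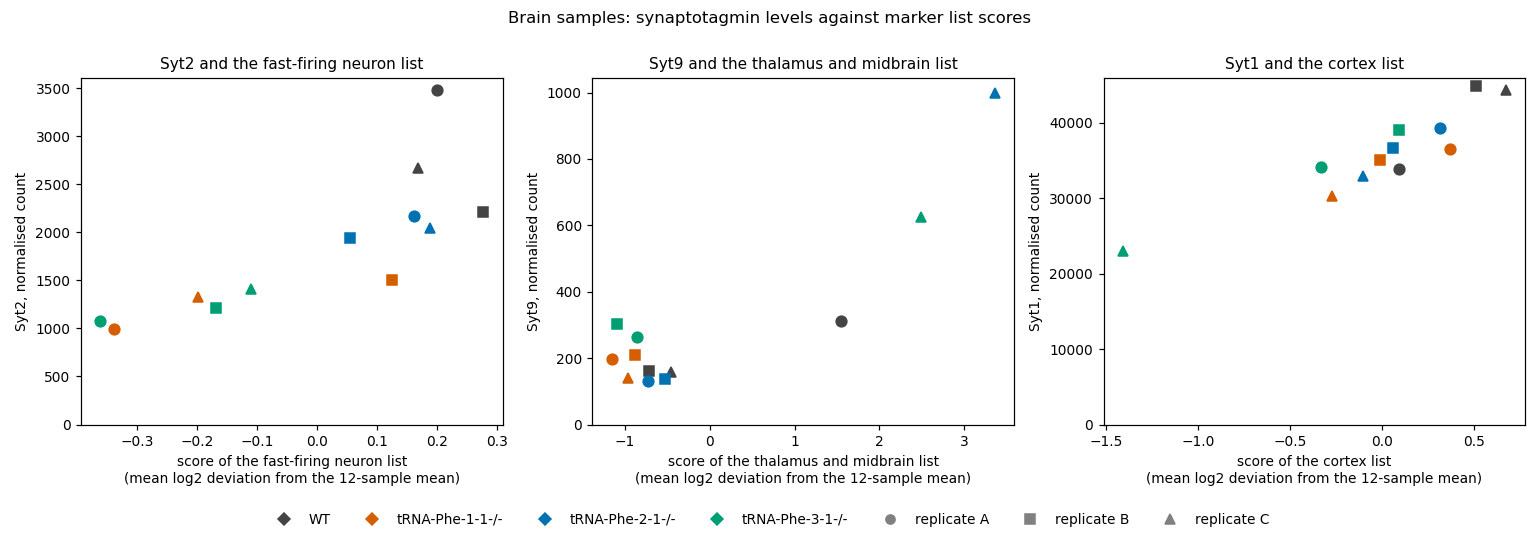
Normalised counts of Syt2, Syt9 and Syt1 (vertical axes, from 0) against the score of a marker list (horizontal axes, mean log2 deviation from the mean of 12 brain samples), 1 symbol per brain sample and 1 colour per genotype. Syt2 rises with the fast-firing list (r of log2 levels 0.88), Syt9 is highest in the 2 samples above 2.4 on the thalamus and midbrain list, and Syt1 is lowest in the sample at -1.41 on the cortex list.

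Other members moved with other marker lists across the same 12 samples. Syt1 followed the score of 8 cortex markers (r = 0.95), and tRNA-Phe-3-1-/- C, which had the lowest Syt1, had the lowest cortex score at -1.41. Syt12 went with the general neuron score (r = 0.87) and the cortex score (r = 0.79). Syt9 rose (r = 0.86) and Syt5 was lower (r = -0.92) where thalamus and midbrain markers were high. Oligodendrocyte markers were lower than in WT in tRNA-Phe-1-1-/- for all 9 genes without overlap, with a median log2 difference of -0.98. In the same line the 4 erythroid markers lay below WT without overlap, with a median of -1.15. Of all genes in that line, 12.4% lay below WT without overlap. In tRNA-Phe-3-1-/- 6 of 8 striatum markers lay above WT without overlap (median 1.23) and 5 of 8 cortex markers below (median -1.05), beside 7.93% of all genes above and 8.48% below. The correlations are descriptions over samples that share depth and tissue make-up, and the part of the regions in the levels was not tested. Without the 3 libraries high in thalamus and midbrain markers, a choice made after seeing the data, the Syt2 differences were -0.95, -0.24 and -1.09, and 1, 0 and 0 members were called. Without the 2 libraries high in olfactory bulb markers they were -0.96, -0.42 and -1.15, with 1, 0 and 1 called, Syt2 both times. Over all 19228 genes, 140 passed in tRNA-Phe-3-1-/- in that fit, against 0 with all samples. Without the thalamus and midbrain libraries 4 passed in tRNA-Phe-2-1-/- and 2 in tRNA-Phe-3-1-/-. In tRNA-Phe-1-1-/- 202 genes passed with all samples. The counts of all genes in that line without these libraries are not given here, so nothing is read from its 1 member called.

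Around the synaptotagmins, 51 genes of the release machinery were listed and 50 were tested in the brain. By limma 0 of 50 passed the adjusted p in any line, against 1.05%, 0% and 0% of all genes, and 9, 4 and 14 had an unadjusted p under 0.05, beside 15.9%, 5.57% and 12.3% of all genes. By DESeq2 on recovered reads 2, 0 and 2 passed, beside 4.55%, 0.109% and 1.94% of all genes. They were Cadps2 and Synpr in tRNA-Phe-1-1-/- and Cacnb4 and Synpr in tRNA-Phe-3-1-/-. By edgeR 0 passed in each line, beside 0.973%, 0% and 0% of all genes. The median log2 difference of the 50 genes was -0.08, -0.04 and -0.18. Among the 9 SNARE and fusion genes, Vamp1, the vesicle SNARE of fast synapses, had 5982, 3164 and 3958 normalised counts in WT and 2591, 2755 and 2346 in tRNA-Phe-1-1-/-, a difference of -0.72 ± 0.26 without overlap. In the other lines it overlapped WT, at -0.22 ± 0.26 and -0.59 ± 0.26. Vamp2, its forebrain counterpart, differed by -0.49 ± 0.21, -0.46 ± 0.21 and -0.09 ± 0.21, overlapping in each. Snap25, a plasma membrane SNARE, lay below WT without overlap in tRNA-Phe-3-1-/- alone, at 45823, 52131 and 32419 against 57777, 67238 and 63039 (-0.55 ± 0.16). Stx1a, the partner of Snap25, differed there by -0.71 ± 0.35 with overlap.

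Of the 15 priming and clamping genes, Cplx1, the complexin that works beside fast sensors, had 8504, 8748 and 8708 normalised counts in WT, 7112, 7540 and 6452 in tRNA-Phe-1-1-/- and 5913, 8053 and 6031 in tRNA-Phe-3-1-/-. Both lines lay below WT, by -0.30 ± 0.12 and -0.39 ± 0.12. In all, 3 of 15 such genes in tRNA-Phe-1-1-/- (Cadps2, Cplx1 and Rims2) and 6 of 15 in tRNA-Phe-3-1-/- (the same 3 with Rab3a, Rims1 and Unc13b) lay below WT without overlap, and 0 above, beside 12.4% and 8.48% of all genes below. Of 13 vesicle proteins, 3 lay above WT without overlap in tRNA-Phe-1-1-/- (Syn3, Syngr3 and Synpr) and 3 in tRNA-Phe-3-1-/- (Slc32a1, Sv2c and Syn3), beside 12.8% and 7.93% of all genes above. The lowest difference of the vesicle list in tRNA-Phe-1-1-/- was that of Slc17a6, a vesicular glutamate transporter, at -1.21 ± 0.88 with overlap. Synpr, synaptoporin, had the largest positive difference of the vesicle list in all 3 lines, with differences of 0.99 ± 0.30 in tRNA-Phe-1-1-/- and 0.81 ± 0.30 in tRNA-Phe-2-1-/- without overlap, and 0.89 ± 0.30 with overlap in tRNA-Phe-3-1-/-. Sv2a, the common SV2 isoform and the 1 vesicle gene below WT without overlap in tRNA-Phe-1-1-/-, differed by -0.15 ± 0.07, -0.07 ± 0.07 and -0.05 ± 0.07, and Sv2c by 0.52 ± 0.33, 0.67 ± 0.33 and 0.47 ± 0.33. Of the 7 synaptotagmin genes outside the 10, 6 were tested and 0 passed the adjusted p by limma. Their medians were 0.01, 0.06 and -0.18. Of the 7 calcium channel genes, Cacnb4 lay below WT without overlap in tRNA-Phe-1-1-/- (-0.37 ± 0.15) and tRNA-Phe-3-1-/- (-0.61 ± 0.15).

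In the liver, whose values the choice of genes did not use, 2 of the 5 tested members passed in tRNA-Phe-1-1-/- against WT, 1 lower and 1 higher, beside 17.3% of 15856 genes (9.08% lower and 8.27% higher). The groups did not overlap for 3 of the 5, beside 34.8% of genes. Syt1 fell. It had 171, 272 and 319 normalised counts in WT and 83.8, 37.0 and 84.9 in tRNA-Phe-1-1-/-, with means of 254 ± 75.7 and 68.6 ± 27.3 and no overlap. The log2 difference was -1.92 ± 0.32, with an adjusted p of 0.00231 by limma over all genes tested. The tRNA-Phe-1-1-/- livers also had less Syt1 than those of tRNA-Phe-2-1-/- (304, 253 and 355, adjusted p = 0.00122 by limma) and of tRNA-Phe-3-1-/- (336, 316 and 440, adjusted p = 0.000749 by limma), where 15.9% and 16.1% of genes passed. The fall passed in every other fit listed under the processing, with differences of -1.53 to -2.18. In the brain of the same line Syt1 differed by -0.26 ± 0.18, and the difference between tissues was not tested.

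Syt12 rose in tRNA-Phe-1-1-/- liver. Its counts were 27.4, 28.7 and 16.9 in WT and 197, 355 and 43.0 in tRNA-Phe-1-1-/-, without overlap but with 1 sample close to WT. The log2 difference was 2.56 ± 0.58 (adjusted p = 0.0121 by limma), and 2.30 ± 0.58 against tRNA-Phe-2-1-/- (adjusted p = 0.0217 by limma). Against tRNA-Phe-3-1-/- it was 1.74 ± 0.58 and missed the threshold (adjusted p = 0.0636 by limma). The call was lost without WT C (adjusted p = 0.0544 by limma), without tRNA-Phe-1-1-/- A (0.0514) and in a fit of the 2 groups alone (0.0604). The difference was 1.92 without tRNA-Phe-1-1-/- B and 3.43 without tRNA-Phe-1-1-/- C. Over all fits by limma, edgeR and DESeq2 the adjusted p ran from 2.1e-06 to 0.0604.

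Syt9 in tRNA-Phe-1-1-/- liver lay below WT without overlap, at 12.2, 22.9 and 18.4 against 38.1, 40.5 and 38.9, a difference of -1.13 ± 0.40 that missed the threshold (adjusted p = 0.0761 by limma). Syt7 (-0.38 ± 0.46) and Syt11 (0.22 ± 0.45) overlapped WT. In tRNA-Phe-2-1-/- liver and in tRNA-Phe-3-1-/- liver 0 of 5 members passed by limma, edgeR or DESeq2. The shares of all genes were 0.132% and 0.883% by limma, 0.126% and 0.883% by edgeR and 3.12% and 4.84% by DESeq2. At an unadjusted p under 0.05 by limma there were 0 and 1 members, beside 14.9% and 16.1% of all genes. The latter was Syt11 in tRNA-Phe-3-1-/-, at 74.9, 60.8 and 69.4 against 133, 199 and 106 in WT, a difference of -1.04 ± 0.45 (adjusted p = 0.281 by limma).

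Beside these liver values, the 5 general neuron markers summed to 63.6 to 129 normalised counts in WT liver and 88.0 to 151 in tRNA-Phe-1-1-/- liver. The hepatocyte score was -0.02 to 0.03 in WT and 0.02 to 0.22 in tRNA-Phe-1-1-/-, overlapping by a small margin. The 4 erythroid markers fell in tRNA-Phe-1-1-/- liver, all of them past the threshold by limma and without overlap and with a median log2 difference of -0.87. Of all genes there, 9.08% passed as lower, and 34.8% did not overlap WT in either direction. The part of cell make-up in the liver levels was not tested.

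**Figure D5:**
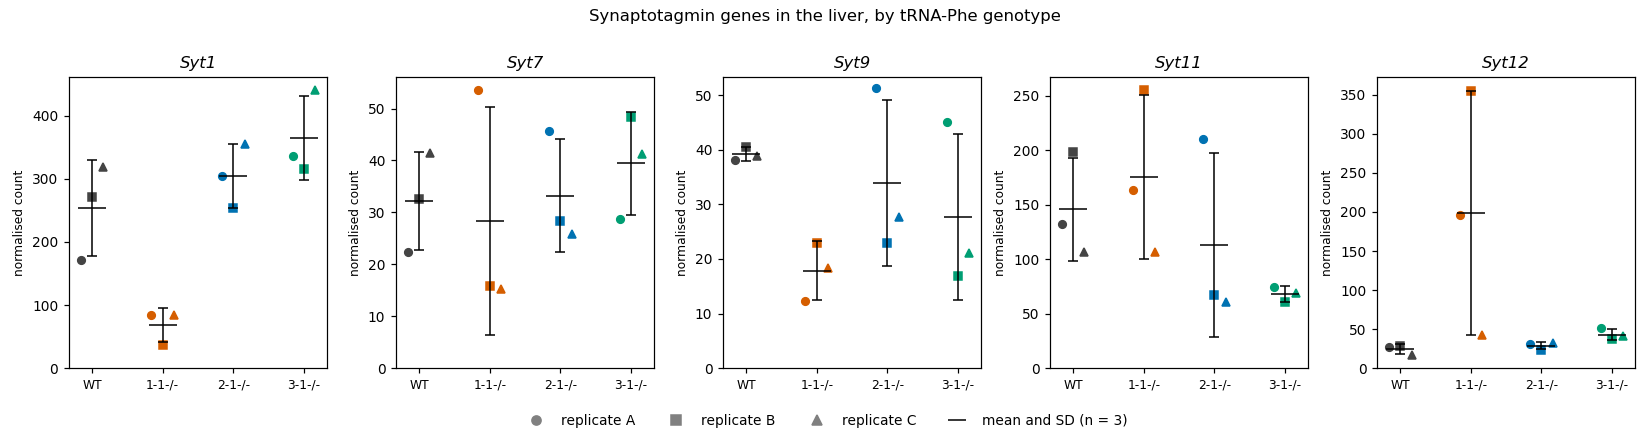
Normalised counts (vertical axis, from 0) of the 5 members tested in liver by genotype, with 1 symbol per sample and a bar and whiskers for mean and SD (n = 3). Syt1 in tRNA-Phe-1-1-/- (37.0 to 84.9) lies below all other samples, and Syt12 in that line spreads from 43.0 to 355.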

How the data were processed

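Total RNA of 24 samples (brain and liver, 4 genotypes, 3 samples each) was sequenced. Per the labels and the methods of the study, the authors trimmed reads with Trim Galore and cutadapt, aligned them with STAR to GRCm38.p6, quantified GENCODE transcripts with Salmon (versions not given here), summed them per gene and scaled them with DESeq2 size factors within each tissue. The deposited signal values are these normalised counts. The authors' tables of log2 fold changes and s-values were not used.

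Values in each sample were whole multiples of 1 read (100% of values, tolerance 0.001 reads), so reads were recovered for edgeR and DESeq2. No replicates were near-identical (smallest chi-square per gene 14.1). Nothing in the labels ties the samples to more than separate samples of a group, so p-values measure the spread between them. Symbols were matched for 93.2% of 55434 Ensembl IDs. Genes averaging 10 normalised counts or more (19228 in brain, 15856 in liver) were fitted with limma 3.58.1 (R 4.3.3) on log2(normalised count + 1), with a variance trend, all 12 samples of a tissue, and Benjamini-Hochberg adjustment over all genes tested at a threshold of 0.05. The fit was tested on simulated data. Levels per kilobase used GENCODE canonical transcripts, and tissues were compared without a test.

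Alternatives were pseudocounts of 0.1 and 5, no filter and a mean of 50, quantile and trimmed-mean scaling, no variance trend, a replicate block, only the 2 groups compared, edgeR 4.0.16, DESeq2 1.42.0 and leaving out each sample. Members and lists were chosen with earlier results of these data known. Named were all members, the 10 genes most and 5 least correlated with Syt2, Stx1a, Snap25, Vamp1, Vamp2, Cplx1, Sv2a, Sv2c and any release gene past the threshold, and Pvalb, Kcnc1 and Nefh. The release lists in liver are not reported here. Other genes of the release lists (such as Synpr, Rims2 and Cacnb4) were named after their values were seen.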

Additional observations from a re-analysis of the deposited data

Results flagged for a closer look

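Syt12 in tRNA-Phe-3-1-/- lay on opposite sides of WT in the 2 tissues, with every sample of the line below WT in brain (log2 difference -0.59) and above WT in liver (0.83). The difference between the tissues was not tested, and the liver value itself missed the threshold (adjusted p = 0.529 by limma). Over the 12 brain samples Syt12 went with the general neuron score (r = 0.87), and the part of tissue make-up was not tested.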

How the results depend on the processing

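Of the members' log2 differences in brain, judged by size alone, 689 of 690 values moved by less than the spread. Many of these values could not move. The filters, the variance trend, the replicate block and the fit of only the 2 groups leave a difference as it is. So does leaving out a sample of a line outside the comparison. The count therefore overstates how stable the differences are. In liver 335 of 339 counted as kept, mainly by their side of the threshold. A change of direction counted there only where the value passed the threshold in either fit, and a fit without an adjusted p counted as kept. Gains and losses of calls in brain (Syt2 and Syt10) are in the counts of members. The exceptions were Syt11 in tRNA-Phe-3-1-/- brain (0.06 under quantile normalisation) and in tRNA-Phe-1-1-/- liver, Syt12 (3 fits) and Syt9 (adjusted p = 0.0443 by limma without tRNA-Phe-3-1-/- A). Outside this count, Syt7 in tRNA-Phe-2-1-/- brain moved to -0.10 without the 3 libraries high in thalamus and midbrain markers, an alternative chosen after seeing the data. Counts of calls moved more, and the cause was not tested. In tRNA-Phe-1-1-/- brain the 202 genes became 95 without a filter, 103 without a variance trend, 874 by DESeq2 and 5 to 248 with 1 sample left out. The 1 member became 0 with only the 2 groups and 0 to 1 with 1 sample left out. The release lists, at 0, had 2 by DESeq2 and 0 to 1 with 1 sample left out (Rph3a without WT A, Synpr without tRNA-Phe-3-1-/- C). They had 4 without the thalamus and midbrain libraries (Rph3a, Syn1, Synpr and Vamp2) and 1 without the olfactory bulb libraries (Doc2b). Counts of all genes in tRNA-Phe-1-1-/- without these libraries are not given here, so nothing is read from the 4 and the 1. In tRNA-Phe-2-1-/- brain the 0 genes became 1 without a filter, 21 by DESeq2 and 4 without the thalamus and midbrain libraries. In tRNA-Phe-3-1-/- brain the 0 genes became 1 without a filter, 373 by DESeq2, 0 to 75 with 1 sample left out (75 without sample B), 2 without the thalamus and midbrain libraries and 140 without the olfactory bulb libraries. Members there were 2 by DESeq2 and 1 without the olfactory bulb libraries, and release genes were 2 by DESeq2, 0 to 2 with 1 sample left out (Cacnb4 and Cplx1) and 2 without the olfactory bulb libraries (Cacnb4 and Doc2b). Both sets of libraries were chosen after seeing the data. In tRNA-Phe-1-1-/- liver the 2751 genes became 1808 with only the 2 groups and 1472 to 2871 with 1 sample left out, and the 2 members became 1 and 1 to 3. The 21 genes of tRNA-Phe-2-1-/- liver became 0 without a variance trend, 167 with only the 2 groups, 495 by DESeq2 and 0 to 41 with 1 sample left out. The 140 of tRNA-Phe-3-1-/- liver became 33, 8, 767 and 2 to 213 in the same order.

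Samples were not paired by replicate letter in the main fit. Of 18 pairs with the same letter, 5 had a correlation of deviations over 0.1 (-0.29 to 0.30). With 3 samples per group, whose deviations cancel out within the group, these values cannot exclude a pairing. With a replicate block, tRNA-Phe-1-1-/- had 173 genes and 1 member in brain and 2347 genes and 2 members in liver, and the liver counts of the other lines were 1 and 9.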
